A study of Mus musculus with 6 samples.

Results

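The comparison set the ITGA8+ fraction against the PDPN+ fraction of ALCAM+ cells from fetal mouse liver, with 1 array for each fraction, so 2 of the 6 arrays of the series. Both arrays were chosen by their labels, and neither their values nor those of any gene entered that choice. All embryos were wild-type C57Bl6 at E12.5, in mid-gestation, and the labels name no transgene or treatment. The ITGA8+ array measured ALCAM+ cells positive for integrin alpha 8, and the PDPN+ array measured ALCAM+ cells positive for podoplanin. The ITGA8- and PDPN- arrays measured ALCAM+ cells without each marker and were read beside them. The liver and ALCAM+ arrays measured unfractionated liver cells and all ALCAM+ cells. The labels do not say how many embryos were pooled for an array. With 1 array in each group there is no replicate error, no test was possible, and every difference is a difference between 2 arrays.

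ALCAM is an adhesion molecule of the immunoglobulin family found on mesothelial and mesenchymal cells of the fetal liver. Integrin alpha 8 pairs with integrin beta 1 and binds matrix ligands such as nephronectin, and it is known from mesenchymal cells around vessels, including hepatic stellate cells. Podoplanin is a mucin-like glycoprotein of mesothelium and lymphatic endothelium, and CLEC-2 on platelets is its receptor. The liver surface is covered by mesothelium, below which lie mesenchymal cells that contribute to stellate cells, the vitamin A storing cells of the liver. The fetal liver is also the main site of blood formation, so a cell preparation from it can carry red cell precursors, macrophages and megakaryocytes. For that reason the blood genes are described apart from the mesenchymal and mesothelial genes.

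The values were intensities on a linear scale, and differences are of log2(intensity + 16), written as ITGA8+ minus PDPN+. A gene was counted where the higher of its 2 arrays reached an intensity of 110, just above the median of all probe set values, and 14109 of 20678 genes did. Values below that are called under the floor. Of these, 2321 genes were 2-fold or more higher in ITGA8+ cells, 16.5% of all genes above the floor. A further 2005 genes were 2-fold or more higher in PDPN+ cells, 14.2% of the same genes. Counts of list or family members stand against these shares throughout. The median difference over all 14109 genes was 0.05, so the arrays were centred on each other. The Spearman correlation over probe sets was 0.917 between these arrays, against 0.963 between ITGA8+ and ITGA8- and 0.913 between PDPN+ and PDPN-.

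The marker of each fraction was the higher in its own array, but both markers were above the floor in both. Itga8 had an intensity of 4354 in ITGA8+, 871 in ITGA8-, 737 in PDPN+ and 2215 in PDPN-. It was 5.80-fold higher in ITGA8+ than in PDPN+ cells. Pdpn had 4658 in ITGA8+, 6176 in ITGA8-, 7746 in PDPN+ and 117 in PDPN-. Its difference between the positive fractions was 1.66-fold, short of 2-fold, so Pdpn transcript was abundant in ITGA8+ cells too. Alcam, on which all fractions had been selected, was at 22418 in ITGA8+ and 19332 in PDPN+ cells.

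Both of the stromal surface genes Fap and Thy1 were near background in PDPN+ cells. Fap encodes fibroblast activation protein, a surface protease of mesenchymal cells. It was at 1539 in ITGA8+, 778 in ITGA8-, 15 in PDPN+ and 30 in PDPN-. The ITGA8- array was thus also high, and the PDPN- array also low. Thy1, a glycoprotein of fibroblasts, neurons and T cells, was at 216 in ITGA8+ and at 49, 3 and 55 in ITGA8-, PDPN+ and PDPN-. For Thy1 the ITGA8+ array was the single array of the 4 above the floor. Its difference of 3.61 from PDPN+ depends on low values, and was 5.76 with a pseudocount of 1, 2.06 with 64 and 1.96 with loess normalisation.

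**Figure D1:**
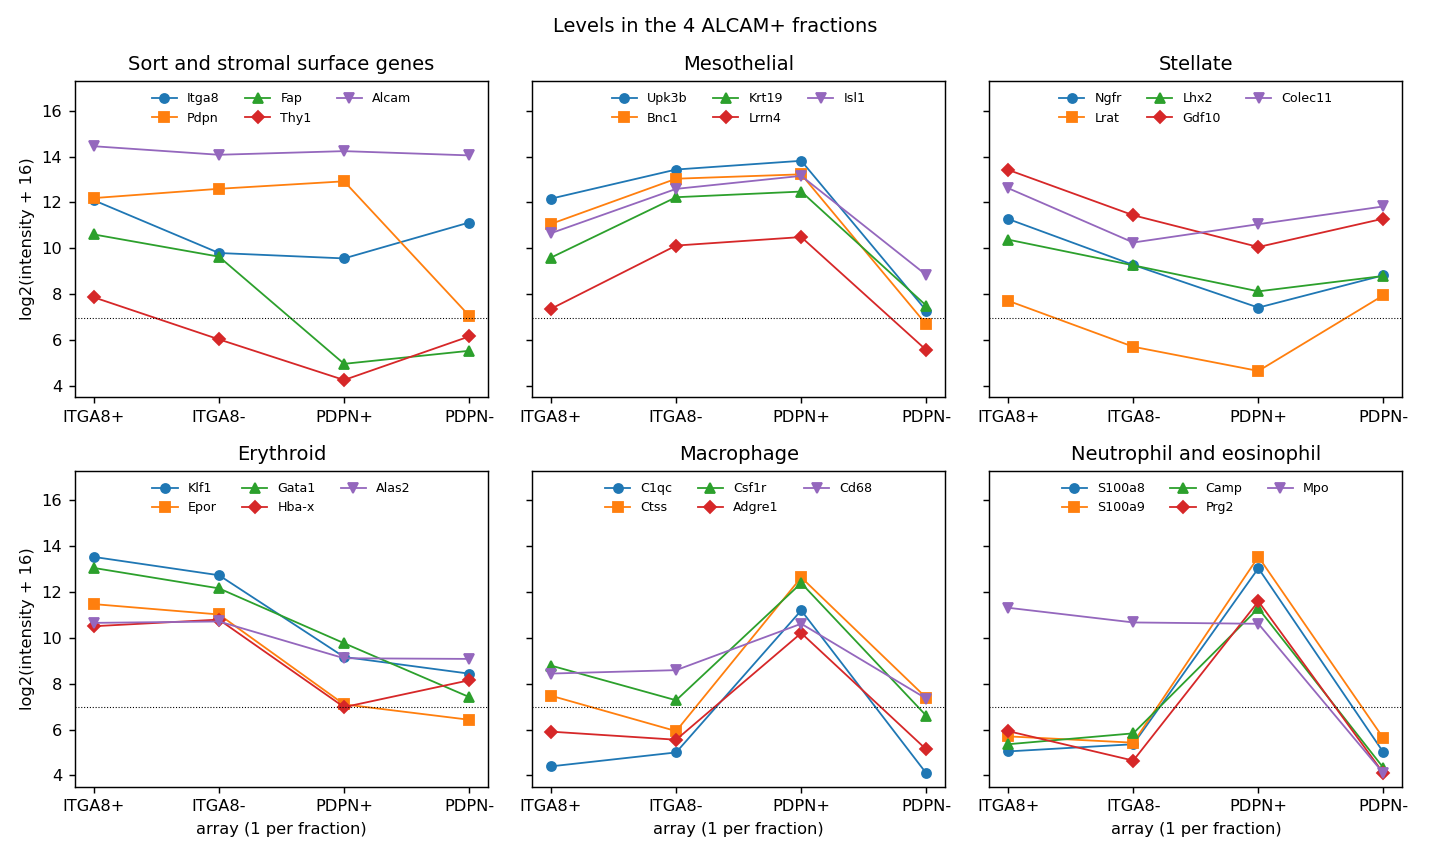
Level of selected genes as log2(intensity + 16) in the 4 ALCAM+ fractions, 1 array each, with lines joining the values of a gene and a dotted line at the floor. The erythroid genes shown are high in both arrays of the ITGA8 pair, the macrophage and granulocyte genes other than Mpo peak in PDPN+, and the mesothelial genes are lowest in PDPN-.

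Mesothelial genes were higher in PDPN+ cells. Of the 20 list members above the floor, 14 passed 2-fold in that direction, against 14.2% of all genes, and 0 passed it toward ITGA8+ cells. The median of the 20 was -2.11, and that of all 21 measured members was -2.05. In bulk samples such as these, fewer cells of a type and less RNA per cell cannot be told apart. Cldn15, a tight junction claudin, was at 445 in PDPN+ and 9 in ITGA8+ cells. Lrrn4, a leucine-rich repeat protein of mesothelium, was at 1421 in PDPN+ and 148 in ITGA8+ cells. Krt19, an intermediate filament keratin, was at 5676 in PDPN+, 756 in ITGA8+, 4781 in ITGA8- and 164 in PDPN-, a 7.37-fold difference between the positive fractions. These genes were lower in ITGA8+ than in ITGA8- cells as well.

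The uroplakin gene Upk3b was at 14424 in PDPN+ and still at 4578 in ITGA8+ cells, 3.14-fold apart. Bnc1, a transcription factor of mesothelium and stratified epithelium, was at 9573 and 2124. Msln, encoding mesothelin, was at 430 in PDPN+ and 48 in ITGA8+ cells. Muc16, Gpm6a, Krt7, Upk1b, Tm4sf5, Ezr, Nkain4 and Rspo1 were the other members past 2-fold, between -3.61 and -1.56. Most mesothelial transcripts were thus lower in ITGA8+ cells but above the floor, which 3 of the 21 measured members did not reach there.

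A smaller group of mesothelial list members differed little between the fractions. Wt1, a zinc finger factor of coelomic mesothelium and its mesenchymal descendants, was at 5762 in ITGA8+, 6421 in ITGA8-, 7554 in PDPN+ and 691 in PDPN-. Aldh1a2, which makes retinoic acid, was at 2509 in ITGA8+, 2082 in PDPN+ and 42 in PDPN-. Tgfb3, Igfbp5, Efna5 and Slpi also lay within 2-fold. In Wt1, Aldh1a2, Tgfb3 and Igfbp5 it was the PDPN- array that stood below the other 3.

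Hepatic stellate genes went the other way, with 14 of 24 members above the floor 2-fold higher in ITGA8+ cells, against 16.5% of all genes, and 1 higher in PDPN+ cells. The median was 1.14, and 1.21 over all 25 measured members. Ngfr, the low-affinity neurotrophin receptor of stellate cells, was at 2466 in ITGA8+, 602 in ITGA8-, 154 in PDPN+ and 436 in PDPN-. It was 14.6-fold higher in ITGA8+ than in PDPN+ cells. Lrat, the enzyme that esterifies retinol for storage, was at 193 in ITGA8+, 36 in ITGA8-, 9 in PDPN+ and 231 in PDPN-. For Lrat the ITGA8+ and PDPN- arrays were the ones above the floor. Lhx2, a LIM homeobox factor of stellate cells, was at 1313 in ITGA8+, 595 in ITGA8-, 262 in PDPN+ and 427 in PDPN-. Its order over the 4 arrays was the same as that of Ngfr. The other probe sets of Ngfr and Lrat lay below the floor in both arrays, so these differences rest on 1 probe set each.

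Ligands of the bone morphogenetic protein family were among the stellate genes with the largest differences. Gdf10 was at 10966 in ITGA8+, 2763 in ITGA8-, 1047 in PDPN+ and 2494 in PDPN-. Gdf2, which encodes BMP9, a ligand of endothelial ALK1 made by liver stellate cells, was at 6991, 1133, 894 and 2481 in the same order. Bmp5 was at 867 in ITGA8+ and 165 in PDPN+ cells, with PDPN- higher still at 1327. The pericyte signalling regulator Rgs5 was 7.71-fold higher in ITGA8+ cells, and the collectin gene Colec11 2.97-fold.

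The homeobox gene Hlx, needed for liver outgrowth, the endothelin receptor gene Ednrb, the intermediate filament gene Nes and Angptl6 were higher by 1.21 to 1.52. Pdgfrb and Ecm1 were just past 2-fold, at 1.07 and 1.05. Several genes often used to name stellate cells lay within 2-fold. Des was at 562 in ITGA8+ and 306 in PDPN+ cells. Hand2 was at 4409 and 3277, and Reln at 13250 and 9305. Gfap, an intermediate filament gene, was at 110 and 65, so it barely passed the floor in ITGA8+ cells and not in PDPN+ cells. Hhip, an antagonist of hedgehog ligands, was the exception on the list, at 940 in PDPN+ and 211 in ITGA8+ cells.

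**Figure D2:**
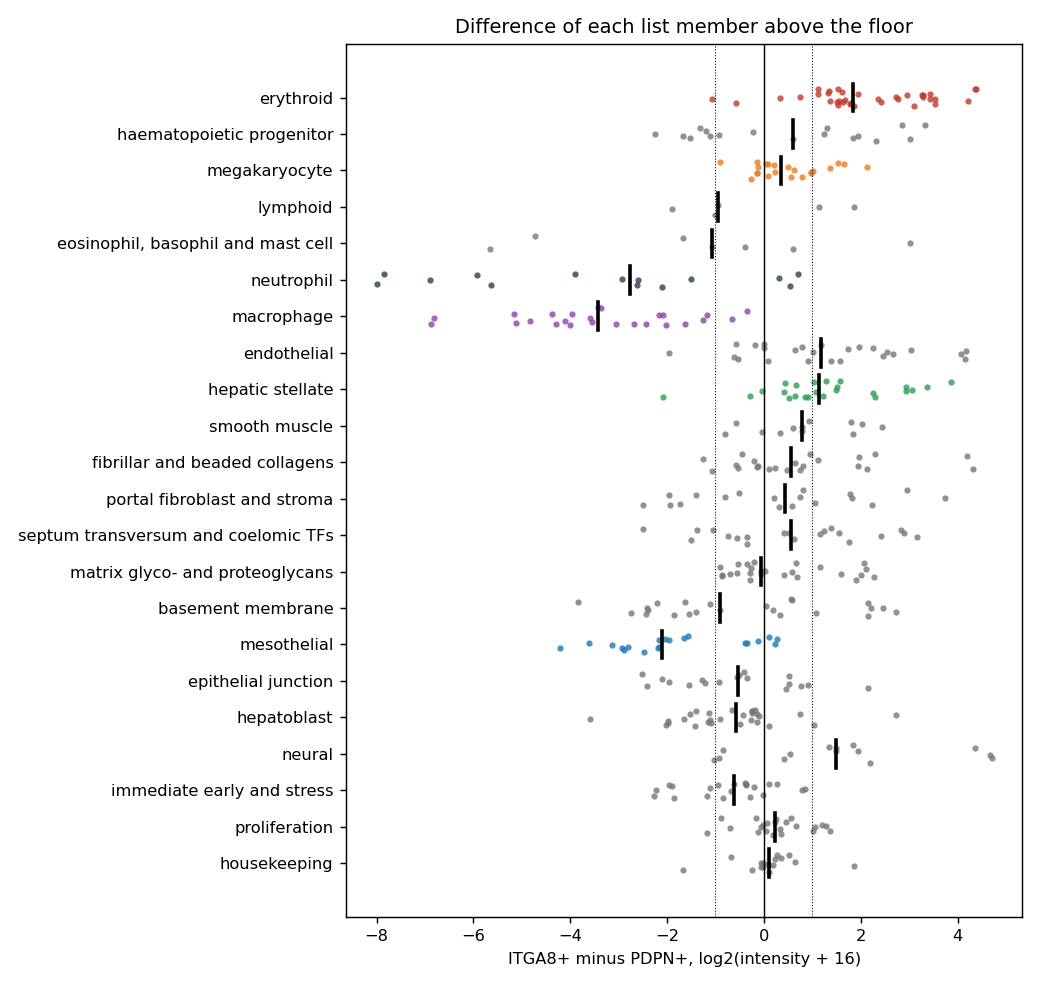
Difference ITGA8+ minus PDPN+ in log2(intensity + 16) for each list member above the floor, with a black bar at the list median, a solid line at 0 and dotted lines at 2-fold. Erythroid members lie to the right, macrophage and neutrophil members to the left, and stellate and mesothelial lists lie on opposite sides with medians of 1.14 and -2.11.

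Of 20 septum transversum and coelomic transcription factors above the floor, 9 were 2-fold higher in ITGA8+ cells (45%, against 16.5% of all genes) and 4 in PDPN+ cells (20%, against 14.2%), with a median of 0.57. Of the list's factors known from epithelial to mesenchymal transition, Twist1, Twist2, Snai1 and Snai2 were among the 9 higher in ITGA8+ cells. Zeb1 and Zeb2 were not. Twist1 was at 3041 in ITGA8+, 3717 in ITGA8-, 412 in PDPN+ and 213 in PDPN-. Prrx1, a homeobox factor of mesenchyme, was at 1163, 786, 115 and 79 in the same arrays. Both were high in both arrays of the ITGA8 pair and low in both arrays of the PDPN pair. Twist2 was 7.39-fold higher, Tbx5 5.31-fold, Mab21l2 3.39-fold, Tbx18 2.93-fold, Snai1 2.63-fold, Snai2 2.38-fold and Meis2 2.22-fold. For Meis2 another probe set went the other way, at 1331 in ITGA8+ and 3083 in PDPN+.

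Higher in PDPN+ cells were, among others, Isl1, Nr2f1 and Gata6. Isl1, a LIM homeobox factor of the coelomic lining, was at 9140 in PDPN+, 6158 in ITGA8-, 1600 in ITGA8+ and 440 in PDPN-. A second Isl1 probe set gave 1892 in PDPN+ and 409 in ITGA8+. Gata4, a factor of the septum transversum, Tcf21, Nr2f2 and Zeb1 lay within 2-fold.

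Of 19 Hox genes above the floor, 9 were 2-fold higher in ITGA8+ cells (against 16.5% of all genes) and 1, Hoxa3, in PDPN+ cells (14.2%). Of the 9, Hoxa5, Hoxc5 and Hoxc8 exceeded the floor in both arrays, and the other 6 passed through ITGA8+ alone, so their count follows in part from the filter. Hoxb5 was at 1997 in ITGA8+, 1395 in ITGA8-, 100 in PDPN+ and 45 in PDPN-. Hoxd8 was at 827, 359, 42 and 87. Hox genes pattern the body axis, and Hoxc5, Hoxa5, Hoxb6, Hoxb9, Hoxc8, Hoxd3 and Hoxd9 were the others. Of 23 forkhead genes, 7 (30.4%) were higher in ITGA8+ cells, 5 of them with both arrays above the floor. The 4 (17.4%) higher in PDPN+ cells were near the share of all genes. Foxc2, a factor of paraxial mesoderm and lymphatic vessels, was at 3608 in ITGA8+, 2658 in ITGA8-, 200 in PDPN+ and 444 in PDPN-. Its relative Foxc1 was 10.5-fold higher. Foxa1 and Foxa3, factors of endoderm and hepatoblasts, were 2.66-fold and 2.16-fold higher in PDPN+ cells.

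Genes of portal fibroblasts and general stroma were split. Of 18, 6 (33.3%, against 16.5% of all genes) were higher in ITGA8+ and 5 (27.8%, against 14.2%) in PDPN+ cells. On the ITGA8+ side were the microfibril genes Mfap5, at 292 against 7, and Mfap4, at 6588 against 1911. Mfap5 passed the floor through ITGA8+ alone, and 16 of the 18 exceeded it in both arrays. The mesoderm homeobox genes Meox2 and Meox1, Cd248, which encodes endosialin, and the hedgehog effector Gli2 were also higher. On the PDPN+ side were the surface peptidase gene Dpp4, at 7186 against 1255, Mcam, Nt5e, Fbln2 and Fbln5. Of 12 smooth muscle genes, 4 (33.3%, against 16.5% of all genes) were higher in ITGA8+ cells. These were Casq2, the smooth muscle myosin gene Myh11, Myocd, which encodes a co-activator of smooth muscle genes, and Actg2. Casq2, at 561 against 90, passed the floor through ITGA8+ alone. Of the 12, 9 exceeded the floor in both arrays, so the count follows in part from the filter. Acta2 was at 4012 and 2092, short of 2-fold.

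**Figure D3:**
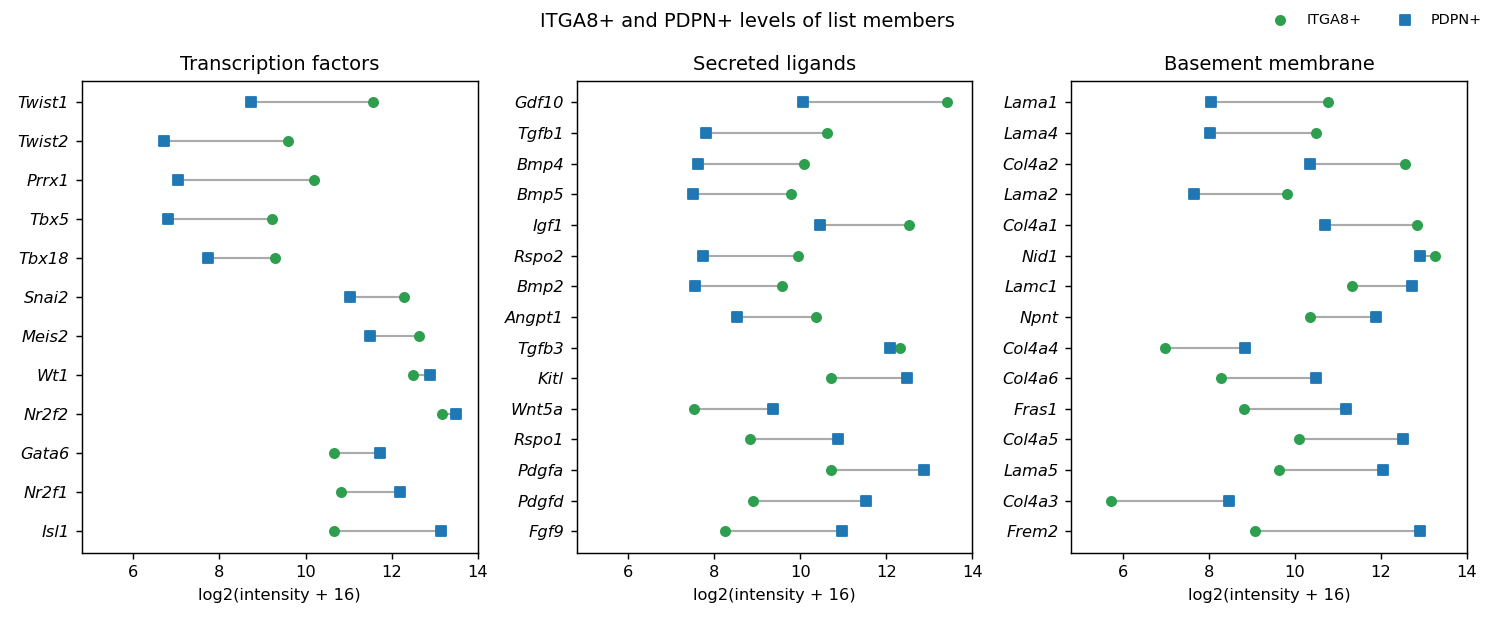
Levels as log2(intensity + 16) of transcription factor, ligand and basement membrane genes in the ITGA8+ array (green circles) and the PDPN+ array (blue squares), 1 array each. In each panel the upper genes are higher in ITGA8+ and the lower ones in PDPN+, with Isl1, Fgf9 and Frem2 at the PDPN+ end.

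Collagens of the common fibrils lay within 2-fold, and several rarer chains did not. Col1a1 was at 19236 in ITGA8+ and 20881 in PDPN+ cells, Col1a2 at 17222 and 16025, and Col3a1 at 14293 and 20710. These intensities lie in the upper part of the range. Of 22 fibrillar, beaded and related collagen genes above the floor, 7 (31.8%, against 16.5% of all genes) were 2-fold higher in ITGA8+ cells. In PDPN+ cells 2 (9.09%, against 14.2%) were higher, and the median was 0.56. Col9a1, Col8a1 and Col23a1 passed the floor through ITGA8+ alone, so the count follows in part from the filter. Over the 18 members with both arrays above the floor the median was 0.17, and with specific probe sets it was 0.06. Over all collagen genes with both arrays above the floor, 7 were higher in ITGA8+ and 7 in PDPN+ cells. Col26a1 was at 3869 in ITGA8+, 1786 in ITGA8-, 179 in PDPN+ and 54 in PDPN-. Col9a1, a chain of cartilage collagen, was at 1014, 238, 40 and 12. Col6a3 was 4.90-fold and Col13a1 4.40-fold higher, followed by Col8a1, Col23a1 and Col16a1. Col8a2 and Col12a1 were 2.38-fold and 2.09-fold higher in PDPN+ cells.

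Of 25 matrix glycoprotein and proteoglycan genes, 7 (28%, against 16.5% of all genes) were higher in ITGA8+ cells. In PDPN+ cells 0 were higher, against 14.2% of all genes, although the median was -0.05. The 7 were Tgfbi, Prelp, Bgn, Emilin2, Mgp, Vcan and Ogn. Tgfbi, an adhesive protein induced by TGF-beta, was at 12158 against 2515, and Bgn, the proteoglycan biglycan, at 9980 against 2355. Fn1, Sparc, Lox, Tnc and Dcn lay within 2-fold.

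Basement membrane genes divided by chain. Of 23 above the floor, 6 (26.1%, against 16.5% of all genes) were higher in ITGA8+ and 11 (47.8%, against 14.2%) in PDPN+ cells (median -0.91). Over the 21 members with both arrays above the floor the median was 0.04. The collagen IV chains that form the common network were higher in ITGA8+ cells. Col4a1 was at 7337 in ITGA8+, 3262 in ITGA8-, 1646 in PDPN+ and 2796 in PDPN-. Col4a2 was at 6018, 2653, 1284 and 1373. The pair shares a promoter region and had the same highest array. The chains of specialised epithelial membranes went the other way, with Col4a5 at 5800 in PDPN+ and 1070 in ITGA8+ cells. Col4a6 was at 1416 and 294, Col4a3 at 338 and 37, and Col4a4 at 439 and 110.

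Laminin alpha chains were split likewise. Lama1, at 1727 against 248, was the furthest apart toward ITGA8+ cells. Lama4 was 5.52-fold and Lama2 4.45-fold higher in the same direction, and Lama5 5.39-fold higher in PDPN+ cells. Frem2 and Fras1, which form a complex at epithelial basement membranes, were 14.3-fold and 5.23-fold higher in PDPN+ cells, while the related Frem1 was 2.10-fold higher in ITGA8+ cells. Npnt encodes nephronectin, a ligand of integrin alpha 8 beta 1. It was at 3775 in PDPN+, 2696 in ITGA8-, 1282 in ITGA8+ and 320 in PDPN-. The ligand was therefore the higher in the fraction not selected for the integrin.

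Of 11 integrin subunits of the list above the floor, 5 were higher in ITGA8+ cells (against 16.5% of all genes) and 0 in PDPN+ cells (14.2%). The list median of 0.74 was -0.28 with specific probe sets alone. Over all 21 integrin genes above the floor, 8 (38.1%) were higher in ITGA8+ and 3 (14.3%) in PDPN+ cells. Besides the 5 of the list, the 8 held Itga8, on which the fraction was sorted, so the count follows in part from the sort. They also held Itga2b, a megakaryocyte list member, at 1843 in ITGA8+ and 571 in PDPN+, and Itgb2, at 568 and 274. The 3 were the leukocyte subunits Itgal, at 925 in PDPN+ and 93 in ITGA8+, Itgax, at 225 and 78, and Itgb7, at 252 and 89, each under the floor in ITGA8+ cells. Itga4, a receptor for fibronectin and VCAM1 on blood and mesenchymal cells, was at 7886 in ITGA8+, 6466 in ITGA8-, 990 in PDPN+ and 341 in PDPN-. It was high in both arrays of the ITGA8 pair, as were the erythroid genes, whose list summed to 226006 and 181170 there against 63062 and 60557, and the part of blood cells in its level was not tested. Itga9, Itga10, Itgb8 and Itga5 were the other 4 of the list, with Itga9, a receptor for tenascin, at 1394 against 338. Another Itga5 probe set went the other way, at 262 in ITGA8+ and 636 in PDPN+. Itgb1, the partner of integrin alpha 8, was at 1733 and 2542, and Itgav at 13343 and 14600.

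Of 48 secreted factors above the floor, 16 (33.3%, against 16.5% of all genes) were higher in ITGA8+ and 12 (25%, against 14.2%) in PDPN+ cells, with a median of 0.20. Apart from the stellate list ligands, ITGA8+ cells had more Tgfb1, at 1552 against 207, Bmp4, at 1065 against 181, and Igf1, at 5859 against 1402. Rspo2, which raises WNT signalling, was at 969 against 199, and Bmp2 at 750 against 172. Ntn1, Angpt1, Vegfc, Fgf7, Sema3a, Inhba, Tgfb2, Ntf3 and Slit3 were the other members past 2-fold. Tgfb1, Angpt1 and the receptor genes Kit and Eng are also known from blood or endothelial cells, and the endothelial list summed to 19843 in ITGA8+ against 10673 in PDPN+ cells. The part of those cells was not tested. For Igf1, Rspo2 and Bmp4 the ITGA8- array was close to ITGA8+, at 5348, 1135 and 780.

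PDPN+ cells had more of Fgf9, a growth factor of mesothelium, at 1995 in PDPN+, 1162 in ITGA8-, 287 in ITGA8+ and 46 in PDPN-. Rspo1, also a mesothelial list member, had the same order, at 1872, 1412, 439 and 26. The platelet derived growth factor genes Pdgfd and Pdgfa were 6.23-fold and 4.49-fold higher in PDPN+ cells, while Pdgfc was within 2-fold. Kitl, the stem cell factor of the blood niche, was at 5693 in PDPN+ and 1676 in ITGA8+ cells, with PDPN- higher still at 8159. Wnt5a, Wnt2b, Efna1, Bdnf, Inhbb, Thpo and Sema3c were also higher. Cxcl12, Hgf, Ptn, Mdk, Igf2 and Dlk1 lay within 2-fold.

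Of 50 receptor genes above the floor, 12 (24%, against 16.5% of all genes) were higher in ITGA8+ and 10 (20%, against 14.2%) in PDPN+ cells, with a median of 0.22. Both shares were near those of all genes, so the receptors are given singly. Unc5c, a netrin receptor, was at 7446 in ITGA8+, 3245 in ITGA8-, 1127 in PDPN+ and 485 in PDPN-, and its ligand gene Ntn1 was also higher in ITGA8+ cells. Ednra, an endothelin receptor of mural cells, was at 5980 against 1428. Ntrk3, Plxna2, Ephb2, Egfr, Ntrk2, Tgfbr2, Kit and Eng were others. Higher in PDPN+ cells were Bmpr1b, Robo2, Erbb2, Igf1r, Epha7, Erbb3, Acvr1, Met, Fgfr4 and Fzd7, with differences of -2.13 to -1.06. Pdgfra, Fgfr1, Fgfr2 and Tgfbr1 lay within 2-fold.

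Gene families chosen after their values were seen gave further groups on the ITGA8+ side, so their counts follow in part from that choice. Of 19 genes of the ADAMTS matrix proteases and their relatives, 10 (52.6%, against 16.5% of all genes) were higher in ITGA8+ cells. In PDPN+ cells 1, Adamts19, was higher (5.26%, against 14.2%), and 6 of the 10 exceeded the floor in both arrays. Adamts2, which trims procollagen, was at 2615 in ITGA8+, 358 in ITGA8-, 214 in PDPN+ and 405 in PDPN-. Of 11 Notch receptors, ligands and targets, 6 (54.5%, against 16.5%) were higher in ITGA8+ and 0 in PDPN+ cells. Among the 6 were Notch4, Jag2, Hey2 and Notch1, and 4 of the 6 exceeded the floor in both arrays. Of 7 protocadherin beta genes above the floor, 4 (57.1%, against 16.5%) were higher in ITGA8+ and 0 in PDPN+ cells. Only 1 of these 4 exceeded the floor in both arrays.

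Among 18 epithelial junction genes, 7 (38.9%, against 14.2% of all genes) were higher in PDPN+ cells (median -0.54). The splicing regulator Esrp1 was the 1 (5.56%, against 16.5%) higher in ITGA8+ cells. Cdh1, the epithelial cadherin, was at 6593 in PDPN+ and 1142 in ITGA8+ cells, but at 10883 in PDPN-. Ocln had the same order, at 1117, 196 and 1959. Cdh3, a second classical cadherin, was at 756, 164 and 88. Among 28 hepatoblast genes, 12 (42.9%, against 14.2%) were higher in PDPN+ and 2 (7.14%, against 16.5%) in ITGA8+ cells (median -0.57). Ahsg, which encodes the plasma protein fetuin A, was at 2609 in ITGA8+, 2917 in ITGA8-, 10290 in PDPN+ and 16444 in PDPN-. Prox1, a factor of hepatoblasts, was at 2106, 3173, 8328 and 10545. Cdh1, Ahsg and Prox1 were thus lower in both arrays of the ITGA8 pair. Alb was at 22138 in ITGA8+ and 23591 in PDPN+, near the top of the range, so hepatoblast transcripts were abundant in both. The hepatoblast list summed to 202156 in ITGA8+, 176140 in ITGA8-, 267553 in PDPN+ and 364157 in PDPN-. The part of hepatoblasts in the junction gene differences was not tested. Nr1h4, the bile acid receptor gene, went the other way, at 720 in ITGA8+ and 95 in PDPN+ cells. Of 14 retinoid handling genes, Lrat and Cyp26a1 (14.3%) were higher in ITGA8+ cells, and Aldh1a1, Rdh11 and Rdh10 (21.4%) in PDPN+ cells. Both shares were near those of all genes, 16.5% and 14.2%. Cyp26a1, which degrades retinoic acid, was at 146 against 13.

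Blood genes counted together hid opposite groups. Of 125 blood list genes above the floor, 48 (38.4%, against 16.5% of all genes) were higher in ITGA8+ cells. In PDPN+ cells 47 (37.6%, against 14.2%) were higher, and the median of the 125 was 0.08. Erythroid genes made up 32 of the 48, and macrophage and neutrophil genes 23 and 11 of the 47.

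**Figure D4:**
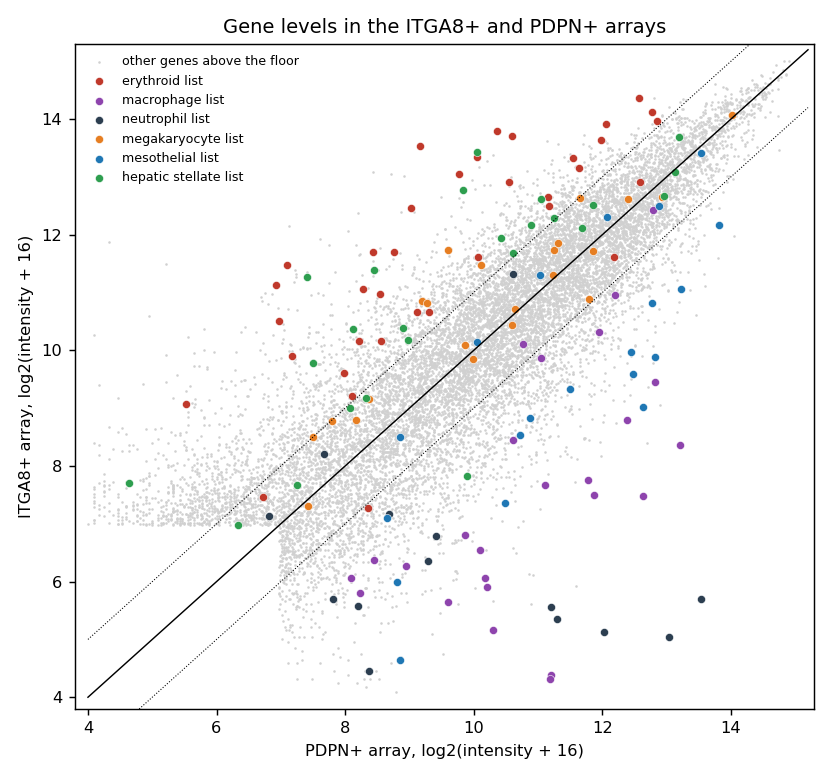
Level of each gene above the floor in the PDPN+ array (x axis) and the ITGA8+ array (y axis) as log2(intensity + 16), with the line of equality and dotted lines at 2-fold. Erythroid genes (red) lie above the upper dotted line in 32 of 36 cases, and macrophage genes (purple) below the lower one in 23 of 25.

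Of 36 erythroid genes, 32 (88.9%, against 16.5% of all genes) were 2-fold higher in ITGA8+ cells (median 1.84). Sptb was the 1 gene (2.78%, against 14.2%) 2-fold higher in PDPN+ cells. Its other probe set went the other way, at 333 in ITGA8+ and 49 in PDPN+. Klf1, the master regulator of red cell genes, was at 11851 in ITGA8+, 6801 in ITGA8-, 559 in PDPN+ and 331 in PDPN-. Epor, the erythropoietin receptor, was at 2830, 2064, 121 and 70. The embryonic alpha-like globin gene Hba-x was at 1442, 1766, 110 and 268. Each was high in both arrays of the ITGA8 pair and low in both arrays of the PDPN pair. The transcription factors Gata1 and Tal1 were 9.75-fold and 9.77-fold higher, and the membrane skeleton gene Ank1 18.5-fold. The haem synthesis genes Alas2, at 1597 against 537, and Fech, at 9102 against 3159, were less far apart. Summed over the 37 measured genes, erythroid intensity was 226006 in ITGA8+, 181170 in ITGA8-, 63062 in PDPN+ and 60557 in PDPN-. Erythroid transcripts were therefore present in all 4 fractions, including Klf1 above the floor in each.

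Since these genes differed together, the 250 bases before their starts were read from the RefSeq promoter table of GRCm38.p6. The table held 30 promoters of 26 of the 38 list genes. The letters AGATAA, a core bound by GATA factors, stood on either strand in 7 of these 30 windows (23.3%), against 3281 of all 32851 promoters (9.99%). CCACACCC, a form of the box bound by KLF factors, stood in 0 of the 30 and in 3.20% of all promoters, and the PU.1 core GAGGAAGT in 0 and in 2.44%. None of these 3 strings contains another. AGATAA stood in 4 of 23 stellate promoters (17.4%), 1 of 23 macrophage promoters (4.35%) and 0 of 16 mesothelial promoters, and a match describes the letters, not a bound site. The Epor promoter, of a gene with one of the largest erythroid differences, lies on the minus strand at chr9:21963577-21963826. Its match begins 54 bases before the start. It is shown whole, 5′ to 3′, with the match in capitals as TTATCT, the reverse complement.
Epor: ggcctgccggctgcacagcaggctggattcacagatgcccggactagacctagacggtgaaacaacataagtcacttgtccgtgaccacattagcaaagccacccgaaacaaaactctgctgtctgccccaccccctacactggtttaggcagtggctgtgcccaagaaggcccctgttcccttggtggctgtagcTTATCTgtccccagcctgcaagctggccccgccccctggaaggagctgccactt
The other 6 matches are shown with 15 bases on each side, so that their surroundings can be set against each other. Kel lies at chr6:41704361-41704396 on the minus strand, Rhd at chr4:134864478-134864513 on the plus strand, and Alas2 at chrX:150547316-150547351 on the plus strand. Tal1 lies at chr4:115056206-115056241 and Trim10 at chr17:36869396-36869431, both on the plus strand, and Epb42 at chr2:121037083-121037118 on the minus strand.
Kel: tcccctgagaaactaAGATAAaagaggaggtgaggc
Rhd: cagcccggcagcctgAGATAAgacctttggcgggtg
Alas2: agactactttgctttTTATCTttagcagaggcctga
Tal1: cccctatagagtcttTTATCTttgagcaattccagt
Trim10: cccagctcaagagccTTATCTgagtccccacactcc
Epb42: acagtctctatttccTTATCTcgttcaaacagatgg
In Kel and Rhd the match stood within 60 bases of the start, as in Epor, and in Epb42 it stood 226 bases before it. The 7 genes were higher in ITGA8+ cells by 1.11 in Epb42 to 4.38 in Epor.

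Of 25 macrophage genes, 23 (92%, against 14.2% of all genes) were 2-fold higher in PDPN+ cells and 0 in ITGA8+ cells (median -3.44). C1qc, a chain of complement C1q, was at 2338 in PDPN+ and at 5, 16 and 1 in ITGA8+, ITGA8- and PDPN-. Cd5l, secreted by tissue macrophages, was at 2327 in PDPN+ and at 4, 13 and 2. In these genes PDPN+ was the single high array of the 4. Csf1r, the receptor for the macrophage growth factor, was at 5357 in PDPN+ and at 427, 139 and 81 in ITGA8+, ITGA8- and PDPN-. Adgre1, which encodes F4/80, was at 1169, 44, 31 and 19. The list summed to 71368 in PDPN+ and to 13823, 8497 and 6636 in ITGA8+, ITGA8- and PDPN-. Of 28 measured members, 15 were at or under the floor in ITGA8+ cells and 3 in PDPN+ cells. Of the 25, 13 exceeded the floor in both arrays. The rest passed through PDPN+ alone, so their count follows in part from the filter, and the median over all 28 measured was -3.21.

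Most granulocyte genes were likewise high in PDPN+ alone, with Lcn2, at 663 in PDPN+ and 699 in PDPN-, and the early granule genes as exceptions. The calcium binding proteins of neutrophils S100a8 and S100a9 were at 8407 and 11903 in PDPN+ and at 36 or less in the other 3 arrays. Camp was at 2490 in PDPN+ and 25 in ITGA8+, and the eosinophil granule gene Prg2 at 3077 and 45. The early granule genes Mpo, Prtn3 and Ctsg lay within 2-fold, with Mpo at 2532 in ITGA8+, 1618 in ITGA8-, 1553 in PDPN+ and 1 in PDPN-. Of 14 neutrophil genes above the floor, 11 were higher in PDPN+ and 0 in ITGA8+ cells. Only 3 of the 14 exceeded the floor in both arrays, and their median was 0.54 in favour of ITGA8+ cells. Over all 20 measured neutrophil genes the median was -1.92. Of 7 eosinophil, basophil and mast cell genes, 4 (57.1%, against 14.2%) were higher in PDPN+ cells. The mast cell protease gene Cpa3 was the 1 (14.3%, against 16.5%) higher in ITGA8+ cells, at 275 against 20.

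Megakaryocyte genes were abundant in both fractions and differed less, with 5 of 22 (22.7%, near the 16.5% of all genes) higher in ITGA8+ and 0 in PDPN+ cells (median 0.36). Pf4, the platelet factor gene, was at 17111 in ITGA8+, 9917 in ITGA8-, 16547 in PDPN+ and 56 in PDPN-. Clec1b, the podoplanin receptor gene of platelets, was at 3340, 1204, 3700 and 57. For both genes ITGA8+ and PDPN+ were less than 2-fold apart and PDPN- was under the floor. Gp1bb, Itga2b, Gp1ba, Vwf and Gp6, of platelet adhesion, were the 5 higher in ITGA8+ cells, by 1.01 to 2.14. The list summed to 67771 in ITGA8+, 29613 in ITGA8-, 56674 in PDPN+ and 1166 in PDPN-.

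Haematopoietic progenitor genes were split. Of 17, 8 (47.1%, against 16.5% of all genes) were higher in ITGA8+ and 6 (35.3%, against 14.2%) in PDPN+ cells. The median was 0.60, and -0.58 with specific probe sets alone. Myb was at 10987 in ITGA8+, 10636 in ITGA8-, 1073 in PDPN+ and 240 in PDPN-. Ikzf1, Lyl1, Lmo2, Cd93, Angpt1, Kit and Runx1 were the others on that side. Ptprc, the pan-leukocyte gene CD45, was at 907 in PDPN+ and 178 in ITGA8+ cells, and Spi1, Irf8, Cebpa, Cd48 and Hlf were also higher in PDPN+ cells. Of 20 lymphoid genes 5 passed the floor, and 2 (40%) were higher on each side.

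Among 25 endothelial genes, 14 (56%, against 16.5% of all genes) were higher in ITGA8+ cells (median 1.18). Fcgr2b was the 1 (4%, against 14.2%) higher in PDPN+ cells. The median over the 13 members with both arrays above the floor was 0.084, so the list difference rests on members under the floor in PDPN+ cells. Plvap, of endothelial diaphragms, was at 1840 in ITGA8+, 365 in ITGA8-, 88 in PDPN+ and 460 in PDPN-. Eng, the endothelial receptor endoglin, was at 746 in ITGA8+ and 26 in PDPN+, and a second probe set gave 634 and 112. Aplnr, the apelin receptor, was at 2532 and 135, and its second probe set, at 151 and 83, fell short of 2-fold. Defining genes of endothelium lay within 2-fold: Kdr was at 231 and 217, Tek at 1212 and 1375, and Flt4 at 2152 and 2137. Pecam1 and Cdh5 did not pass the floor in either array.

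Of 14 neural genes above the floor, 9 were higher in ITGA8+ cells (against 16.5% of all genes) and 1 in PDPN+ cells (14.2%). The median was 1.49, but 0.41 over the 5 genes with both arrays above the floor and 0.58 with loess normalisation. The other 9 passed through 1 array alone, so the count follows in part from the filter. Dcx, a microtubule protein of young neurons, was at 950 in ITGA8+, 533 in ITGA8-, 21 in PDPN+ and 314 in PDPN-. Sox10, a factor of neural crest and glia, was at 393, 238, 4 and 25, but its other 2 probe sets were at or under 50 in both arrays. Gabrb2, a subunit of the GABA receptor, was at 1179, 612, 31 and 54. Cardiac muscle genes above the floor numbered 8, with 2 higher in ITGA8+ cells and 1, Myl7, in PDPN+ cells (median 0.25). Differences toward ITGA8+ reached 3.27, and Actn2 was at 433 in ITGA8+ and 94, under the floor, in PDPN+. Myl7, an atrial myosin light chain, was at 11180 in PDPN+, 8047 in ITGA8-, 1546 in ITGA8+ and 190 in PDPN-, the order of Krt19. Tnnt2, Myl4, Actc1 and Ryr2 lay within 2-fold.

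Of 21 immediate early and stress genes, 7 were higher in PDPN+ cells and 0 in ITGA8+ cells (median -0.63). Klf6 was at 12309 in PDPN+ and 2554 in ITGA8+ cells, Zfp36 at 3882 and 990, Egr2 at 2779 and 583, and Atf3 at 1310 and 340. These genes respond quickly to tissue dissociation, and their part in the other differences was not tested. Of 22 proliferation genes, 5 (22.7%, near the 16.5% of all genes) were higher in ITGA8+ cells. Ube2c was the 1 (4.55%, against 14.2%) higher in PDPN+ cells. The median was 0.23, with Mki67 at 11387 in ITGA8+ and 9002 in PDPN+. Of 17 housekeeping genes, 15 lay within 2-fold (median 0.10). Tbp, a general transcription factor gene, was at 1718 in PDPN+ and 527 in ITGA8+ cells. Y-linked Ddx3y was at 2243 in PDPN+ and 889 in ITGA8+ cells and Xist at 12392 and 13000, so Y-linked transcript and Xist were above the floor in both arrays.

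The largest differences were taken among the 12268 genes with both arrays above the floor, where the pseudocount weighs little. Toward ITGA8+ they mixed mesenchymal with erythroid genes. Bcat1, which starts the breakdown of branched-chain amino acids, was at 4508 in ITGA8+, 2122 in ITGA8-, 124 in PDPN+ and 246 in PDPN-, 32.3-fold apart. Kcnn4, the calcium-activated potassium channel known from red cells, was at 8723, 5051, 328 and 144. Cyp1b1, a cytochrome P450 of mesenchyme, was at 8493, 3444, 403 and 823, and its other 2 probe sets were also higher in ITGA8+. Shisa3 was at 2674 against 133, and Rgcc at 2445 against 134. Ajap1 was at 5288 against 278, and its second probe set at 239 against 106. Hk1, hexokinase, was at 8240 against 469, and its second probe set, at 135 against 98, fell short of 2-fold. Rbm45, Ptprv and Limch1 completed the 15 with Epor, Klf1, Col26a1, Aplnr and Foxc2. Of the 100 largest differences toward ITGA8+ without that condition, 7 stood in blood lists, all erythroid. Of those toward PDPN+ 22 did, 14 of them macrophage and 6 neutrophil. Blood lists held 125 of all 14109 genes above the floor. Some of the 22, such as S100a8 and C1qc, passed the floor through PDPN+ alone, so their count follows in part from the filter.

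The ALCAM+ and liver arrays, which enter neither side of the comparison, were read for these genes. Relative to the median shift between those arrays, Cyp1b1 was 2.67 and Col26a1 2.94 higher in ALCAM+ cells, Foxc2 1.90 and Bcat1 1.78. Kcnn4, Epor and Klf1 were lower there, at -1.01, -1.04 and -1.04. Rbm45, Rgcc, Aplnr and Hk1 lay near the shift, at -0.08, 0.14, 0.40 and 0.55. By list the relative medians were -1.57 for erythroid, -3.10 for neutrophil and 1.08 for stellate genes. Of all 14109 genes, 1987 were 2-fold above the shift and 1387 were 2-fold below it. Blood lists did not all lie below the shift, with a median of 1.47 for megakaryocyte genes. Of 25 macrophage genes, 4 were 2-fold above it, near the share of all genes, and 1 was below. Of the mesothelial genes, 16 of 20 were 2-fold above the shift.

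Toward PDPN+ the 15 held the macrophage and leukocyte genes Ctss, C1qb, Lyz2, Tyrobp, Csf1r and Cd53. Pnoc, the precursor of nociceptin, was at 6625 in PDPN+, 2956 in ITGA8-, 320 in ITGA8+ and 108 in PDPN-, the order of Krt19. Ildr2, Frem2 and Tm4sf5 had the same order. Rbm47, an RNA editing cofactor, was at 324 in ITGA8+, 946 in ITGA8-, 3990 in PDPN+ and 7546 in PDPN-, with the PDPN pair above the ITGA8 pair as in Ahsg and Prox1. Nrn1 was likewise higher in both arrays of the PDPN pair. Gosr1, BC052688 and Wfdc2 completed the group. The Gosr1 difference of -3.78 was -1.54 as the median of its probe sets, and that of Rbm47 fell from -3.56 to -2.44. A second BC052688 probe set, under the floor, went the other way, at 88 in ITGA8+ and 17 in PDPN+.

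ITGA8- and PDPN- cells, whose arrays share none with this comparison, were read for the same 14109 genes. There 24.4% of genes were 2-fold higher in ITGA8- and 9.63% in PDPN- cells. Of the 2321 genes higher in ITGA8+ than PDPN+, 1116 (48.1%) were also higher in ITGA8- than PDPN- and 44 (1.90%) were lower. Of the 2005 genes higher in PDPN+, 609 (30.4%) were also higher in PDPN- than ITGA8-, and 482 (24.0%) were higher in ITGA8-. As a description, the differences of the 2 pairs over all genes were correlated with r = 0.314 (Pearson) and rho = 0.320 (Spearman). The sorts are the same in both pairs, and the marker status is reversed.

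Lists behaved differently in this pair. Erythroid genes kept their direction, with a median of 2.57, and hepatoblast genes theirs, with -1.53. Mesothelial genes changed sign, from -2.11 to 4.40. The stellate median was 0.43 in place of 1.14, with Lrat, Bmp5 and Colec11 changing sign, to -2.25, -2.36 and -1.58. Fap did not change sign and was 4.11 higher in ITGA8-. The difference of Fap between the positive fractions therefore recurred between the negative ones, while that of Lrat did not.

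**Figure D5:**
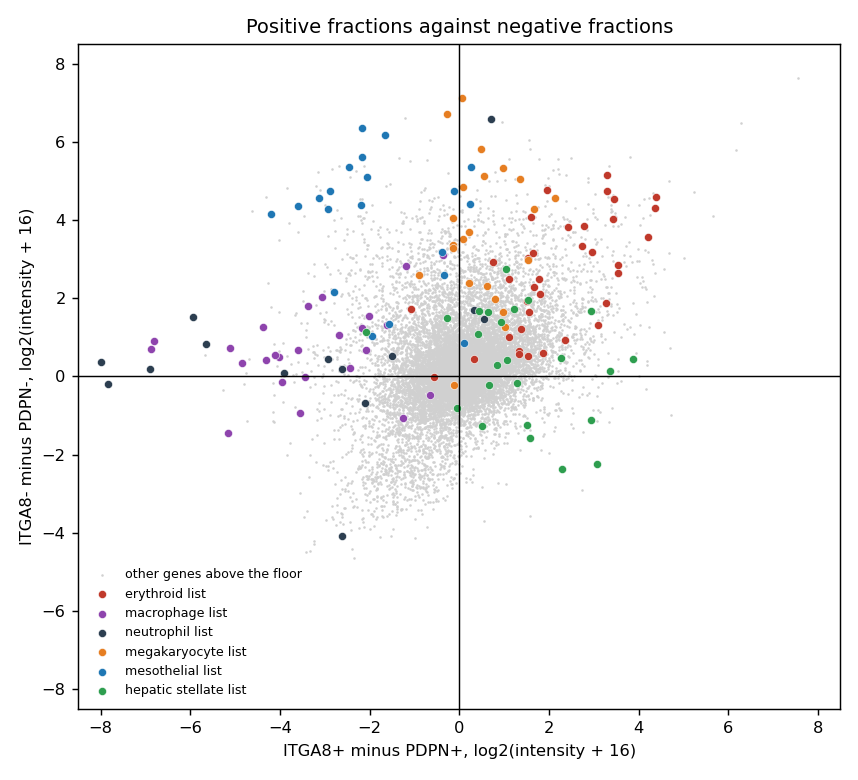
Difference ITGA8+ minus PDPN+ (x axis) against ITGA8- minus PDPN- (y axis) in log2(intensity + 16) for genes above the floor, with list members coloured. Erythroid genes lie at the upper right, mesothelial genes at the upper left, and macrophage genes at the left, with a median of 0.68 on the y axis.

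Agreement between probe sets of a gene is the one error measure within these arrays. Of genes higher in ITGA8+ cells, 859 had another probe set above the floor, which went the same way in 76.5% and was 2-fold in 40.7%. For the 631 such genes higher in PDPN+ cells the shares were 80.2% and 49.8%. Over 6204 genes the median gap between both probe sets was 0.61, so a difference near 2-fold lies close to this gap. The 90th percentile of the gap was 1.65, which is beyond 2-fold.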

How the data were processed

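RNA was hybridised to Affymetrix Mouse Genome 430 2.0 arrays after amplification from 20 ng of total RNA, per the labels' protocols. The authors deposited each array as whole-number intensity per probe set, on a linear scale. RMA and Partek are named in the submitters' processing notes, without versions. The 4 fraction arrays share a trimmed mean of 996 to 997, and the liver and ALCAM+ arrays have other scales (195 and 329), so levels were set side by side within the fractions.

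Of 45101 probe sets, 64 controls, 5746 naming no gene and 1280 naming several were left out. The gene symbols come from RefSeq through Entrez identifiers, which matched 92.1% of the remaining 38011. Where several probe sets named a gene, the one of highest mean in the ITGA8+ and PDPN+ arrays was used, and the gene entered if the higher value reached 110, the floor. Differences of log2(intensity + 16) were counted at 2-fold. Folds understate low genes, and where the lower array is under the floor they depend on the pseudocount. Close paralogs can share probes, so values of globin, stefin and Ear genes are uncertain. No test was run, and the number of arrays limits precision. Counting was tested on simulated data. Python 3.11.15, pandas 2.3.3 and statsmodels 0.14.6 were used.

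The 29 lists hold 665 genes, 15 of them without a probe set of their own, and 17 stand in more than 1 list. Members and lists were chosen with earlier results of these data known. Genes named are the sort markers, the 15 largest differences each way with both arrays above the floor, the 8 largest without that condition, list members with the largest differences or against their list, and family members past 2-fold. Alternatives varied the pseudocount, floor, probe set, normalisation and threshold. Results for some list members are not reported here.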

Additional observations from a re-analysis of the deposited data

How the results depend on the processing

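With 1 array for each group no replicate could be left out. No paired analysis was possible because each group has a single array and no test was run. The 2-fold counts of 2321 and 2005 genes stayed within 1.5 times under pseudocounts of 1 and 64, other choices of probe set, quantile and loess normalisation, and without the blood lists. The count higher in ITGA8+ became 4045 with no floor, 1502 with a floor of 400 and 1491 with both arrays above the floor. At 4-fold the counts were 587 and 488. Without genes below the ALCAM+ minus liver shift 7057 genes were tested, and the counts were 1272 and 841. The share of 2-fold genes higher in ITGA8+ was 53.7%, and 45.1% with loess, 55.0% with quantile normalisation and 64.4% with no floor. Without genes below the ALCAM+ minus liver shift it was 60.2%. The neutrophil median of -2.77 was -1.92 with no floor, -5.79 with a floor of 400 and 0.54 with both arrays above the floor, where 3 genes remain. The endothelial median of 1.18 was 0.084 with both arrays above the floor. The eosinophil, basophil and mast cell median of -1.07 turned to 0.43 with no floor and 0.11 with both arrays above it. The medians of the mesothelial, stellate, erythroid, macrophage, megakaryocyte and hepatoblast lists moved by less than 1.5-fold in all 10 alternatives. For the sort markers and the genes named by the size of their difference, 418 alternative values moved by less than 1.5-fold, 48 by more, and 0 reversed. Genes named by size were chosen for large differences in these same arrays, so a reversal was unlikely from the outset. Settings in which a gene dropped out, such as Fap with both arrays above the floor, were not counted. The progenitor and integrin medians of 0.60 and 0.74 were -0.58 and -0.28 with specific probe sets.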

Other observations

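A search made after seeing the data found 11 genes above an intensity of 400 in both the ITGA8+ and ITGA8- arrays and below 50 in both the PDPN+ and PDPN- arrays. The reverse held for 1 gene, Gstm6, a glutathione transferase, at 412 in PDPN+ and 1178 in PDPN- and at 24 and 37 in ITGA8+ and ITGA8-. For the expressed sequence AI506816 the ITGA8+ and ITGA8- arrays read 3752 and 3762, and the PDPN+ and PDPN- arrays 4 and 3. It had the largest difference toward ITGA8+ of all genes above the floor, and it rests on 1 probe set. Mela, of multi-copy sequence, was at 1208 and 1205 against 1 and 6, and all 3 of its probe sets had this pattern. AI661323 was at 664 and 844 against 2 and 17. Ctse, cathepsin E, was at 2883 and 5518 against 21 and 46. The other 7 were Fap, the homeobox genes Six4 and Hesx1, Ankrd6, Apol8, Lpar2 and Fabp4. Six4 was at 831 and 901 against 37 and 28, and Hesx1 at 654 and 1164 against 32 and 8.

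Tbp, a general transcription factor gene often used as a reference, was at 527 in ITGA8+ and at 1682, 1718 and 1722 in ITGA8-, PDPN+ and PDPN-. Its second probe set was at 91 in ITGA8+ and 90 in PDPN+, below the floor.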
